A study of Rattus norvegicus with 10 samples.

Results

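Milk hands antibodies to the pup, and a small set of genes stands for the steps of that transfer. The genes described here are Pigr, Ccl28, Tnfsf13, Tnfsf13b, Igj and Fcgrt, and they were read from all non-control probes of a rat whole-genome array that carry one of these 6 names. The array carries 5 probes for 5 of the 6 genes, 1 probe each, of 41012 non-control probes in all. No probe has the name Tnfsf13b, the gene of the B-cell survival factor BAFF, so that gene was not analysed here. Of the 5 probes, 3 (Pigr, Ccl28 and Tnfsf13) were detected in whey and entered the tests with 16849 probes in all, whereas Igj and Fcgrt were well above background on 0 of 10 arrays.

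Plasma cells in the lactating mammary gland secrete dimeric IgA, and mammary epithelial cells carry it into milk. CCL28 is the epithelial chemokine that draws IgA plasma cells to the gland through CCR10, and APRIL, the product of Tnfsf13, and BAFF promote class switching to IgA and the survival of plasma cells through TACI, BCMA and BAFF-R. The J chain, encoded by Igj (Jchain in current RefSeq), links IgA into dimers that the polymeric immunoglobulin receptor, encoded by Pigr, binds and carries across the epithelial cell. FcRn, whose heavy chain is encoded by Fcgrt and which pairs with beta-2-microglobulin, binds IgG, and in rodents it takes up maternal IgG in the gut of the suckling pup.

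The arrays measured cell-free RNA of milk whey from 3 F344/N dams, all milked on d 2, on d 9 and again on d 16 postpartum, which gave 3 whey arrays for each day. The dams were bought pregnant, were kept from their litters and given oxytocin before each milking under light anesthesia, and no treatment differed between days. The milk was spun to remove fat, cells and casein. The tenth array held serum RNA of the same 3 dams taken on d 21 and mixed into 1 pool, so serum had no replicate, and each array was made from 100 ng of RNA.

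Signals are given on a log2 scale after quantile normalization of all 10 arrays, with the standard deviation over the 3 dams. Before normalization, the 75th percentile of the processed signal ran from 12.5 to 83.2 among whey arrays, a 6.65-fold range, and was 4.11 in serum. Slide 1 held the d 2 whey of dams 1 and 2, slide 2 held the d 2 whey of dam 3 with all d 9 whey, and slide 3, scanned on another day, held all d 16 whey and the serum pool. A change from d 2 or d 9 to d 16 and a change of slide and scan day therefore cannot be told apart. The number of arrays limits the precision, and a lower whey signal from fewer contributing cells cannot be told apart from less RNA per cell. Of 9 epithelial marker probes (milk proteins and keratins), all were tested, and their summed normalized signal ran from 432000 to 465000 on d 2, from 544000 to 635000 on d 9 and from 739000 to 825000 on d 16, against 5710 in serum. From d 2 to d 9, 0 of them rose and 4 fell, and from d 2 to d 16, 3 rose and 3 fell (limma). Over all tested probes, 11.2% were called higher and 6.46% lower on d 9, and 16.0% and 12.5% on d 16. The sum is led by Wap, a whey protein gene, which ranked 3 to 6 from the top on every whey array, where quantile normalization sets its value.

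The probe sequences show which stretch of each transcript a value stands for. The d 2 to d 16 values of Pigr rest on 1 probe whose 60 bases map to an interval of 435 bases on the plus strand of the array's own build, rn4, at chr13:43802502-43802936, so that its match to the genome is not contiguous, and it is printed whole. The other probes lie without a gap, with the first 30 of 60 bases printed. Capitals are not used, because no base within the probes is singled out.

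Pigr: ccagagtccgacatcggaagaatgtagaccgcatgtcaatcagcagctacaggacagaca
Ccl28, chr2:51712815-51712874 (rn4, plus strand): agcagcttctttagtattgtatttccacca
Tnfsf13, chr10:56500182-56500241 (rn4, minus strand): ccctgcttcaatgtacaagaagcccgattt
Igj, chr14:21125752-21125811 (rn4, plus strand): tcactgctagtgaatttgaaacgagtgctt
Fcgrt, chr1:95568453-95568512 (rn4, minus strand): tcattgctagaggtcaaacgtggagatgaa

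The array annotation used here places no exon, intron or UTR at these intervals, so a probe's place within its transcript is not given.

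Pigr, the receptor that carries IgA through the epithelial cell, had the largest difference to d 16 whey among the members, and its signal lay near background on d 2. In dams 1, 2 and 3, its normalized signal was 4.48, 5.05 and 4.36 on d 2 (4.63 ± 0.37, SD, n = 3), 5.66, 5.84 and 5.19 on d 9 (5.56 ± 0.33, SD, n = 3) and 6.62, 6.27 and 6.88 on d 16 (6.59 ± 0.31, SD, n = 3). The 3 days did not overlap, d 2 being lowest and d 16 highest in each dam. It was well above background on 8 of 9 whey arrays, the exception being d 2 whey of dam 1, where the processed signal was 11.6 against up to 175 in d 16 whey. At equal RNA input, Pigr rose by 1.96 (log2, SE 0.26) from d 2 to d 16, which is 3.89-fold (limma, adjusted p = 0.00202). With normexp, a background correction with an offset of 50, the same difference was 0.84, or 1.79-fold (limma, adjusted p = 0.000284). By dam the d 16 minus d 2 difference was 2.14, 1.21 and 2.53.

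The earlier step of the Pigr course was less certain than the whole. From d 2 to d 9 the difference was 0.93 (log2, SE 0.26; limma, adjusted p = 0.0449), with 1.18, 0.78 and 0.83 in the 3 dams, and 0.41 with normexp (limma, adjusted p = 0.0160). With the dam as a block the same difference had an adjusted p of 0.0697 (limma), and it missed the threshold in 12 of 21 alternative settings. Within slide 2, where 1 d 2 array (4.36) met 3 d 9 arrays (5.19 to 5.84), the difference was 1.20, and the fit with slide as a block gave an adjusted p of 0.249 (limma). From d 9 to d 16 the difference was 1.03, a 2.04-fold higher mean without overlap of the days, with an adjusted p of 0.106 (limma).

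Ccl28, the chemokine that attracts IgA plasma cells, had a higher share of the RNA in d 9 whey than in colostrum whey. Its values on d 9 and d 16 overlapped. Its normalized signal was 8.63, 8.18 and 8.17 on d 2 (8.33 ± 0.26, SD, n = 3), 9.21, 9.60 and 9.64 on d 9 (9.48 ± 0.24, SD, n = 3) and 9.42, 9.36 and 9.17 on d 16 (9.32 ± 0.13, SD, n = 3). Every d 2 array was below every d 9 and d 16 array, while d 9 and d 16 overlapped. The rise from d 2 to d 9 was 1.16 (log2, SE 0.18), or 2.23-fold (limma, adjusted p = 0.00707), and that from d 2 to d 16 was 0.99, or 1.99-fold (limma, adjusted p = 0.00682). The d 16 minus d 9 difference was -0.17 (SE 0.18; limma, adjusted p = 0.649), with 0.21, -0.24 and -0.47 by dam. Dam 1 had the highest d 2 and the lowest d 9 signal, so its d 9 minus d 2 difference was 0.59 against 1.42 and 1.47 in the other dams.

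Tnfsf13, encoding the plasma cell survival factor APRIL, followed a course like that of Ccl28. Its normalized signal was 9.44, 9.56 and 9.59 on d 2 (9.53 ± 0.08, SD, n = 3), 10.47, 10.49 and 10.29 on d 9 (10.42 ± 0.11, SD, n = 3) and 10.05, 10.41 and 10.14 on d 16 (10.20 ± 0.19, SD, n = 3). The d 2 arrays lay below all others, and d 9 and d 16 overlapped through dam 2. It rose by 0.89 (log2, SE 0.13) from d 2 to d 9, or 1.85-fold (limma, adjusted p = 0.00625), and by 0.66, or 1.58-fold, from d 2 to d 16 (limma, adjusted p = 0.00957). The d 16 minus d 9 difference was -0.22 (SE 0.13; limma, adjusted p = 0.407) and was below 0 in all 3 dams, at -0.43, -0.08 and -0.16.

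**Figure D1:**
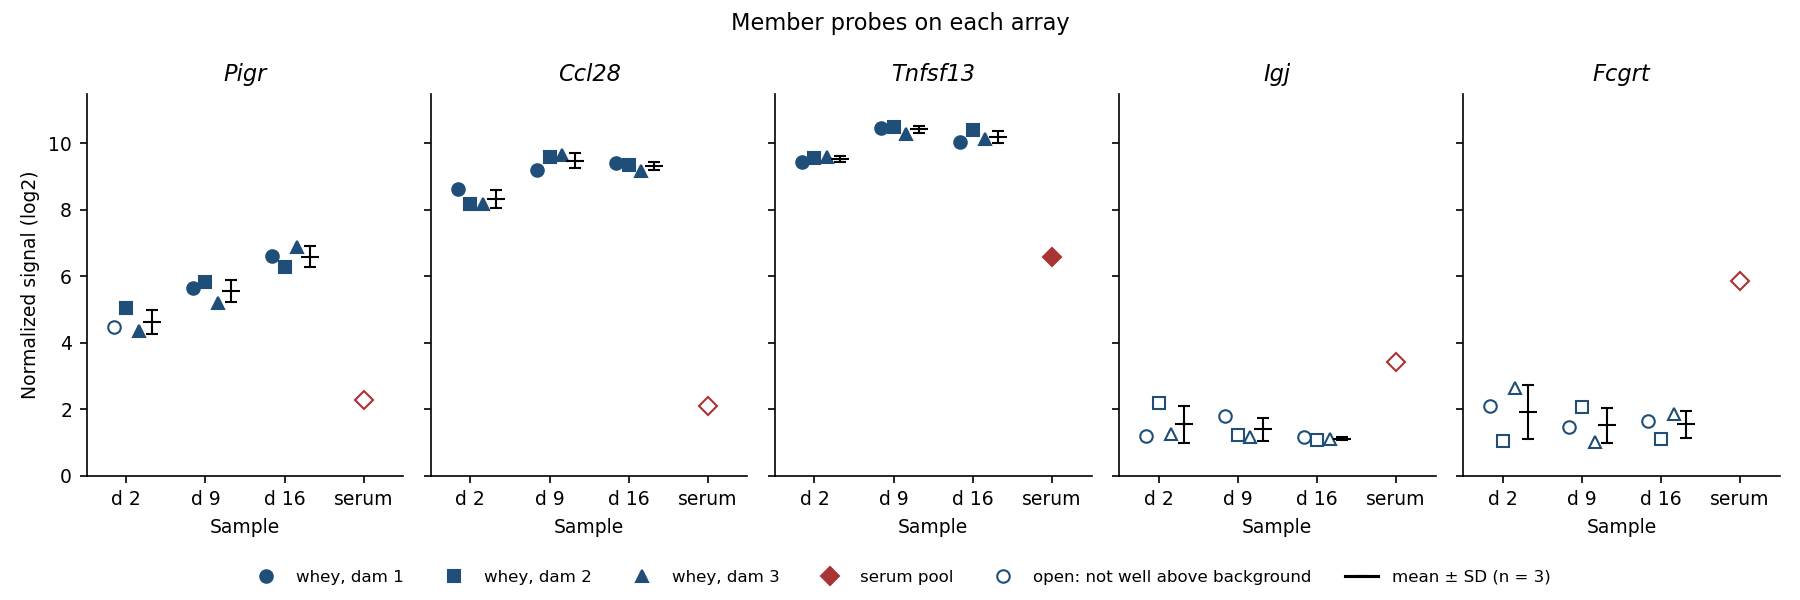
Normalized log2 signal (y axis) of the 5 probes in d 2, d 9 and d 16 whey of 3 dams (one marker shape per dam) and in the serum pool (diamond), with the mean ± SD of each day beside the points. Open markers were not well above background. Pigr steps up from d 2 (4.63) over d 9 (5.56) to d 16 (6.59), whereas Ccl28 and Tnfsf13 are lower on d 2 than on both later days, and Igj and Fcgrt are open on every array.

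The days d 2 and d 9 were also set against each other on 1 slide for Ccl28 and Tnfsf13. Within slide 2 the difference was 1.31 for Ccl28 (8.17 in the d 2 array of dam 3, 9.21 to 9.64 on d 9) and 0.83 for Tnfsf13 (9.59 against 10.29 to 10.49). With slide as a block, which leaves 1 d 2 array beside the d 9 arrays, the adjusted p was 0.170 for Ccl28 and 0.181 for Tnfsf13 (limma).

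The background of these counts was high. All 3 tested members were called higher in d 9 than in d 2 whey, where 11.2% of all tested probes were called higher and 6.46% lower, and all 3 were called higher in d 16 than in d 2 whey, where the shares were 16.0% and 12.5%. Non-overlapping days were common too: 38.8% of all tested probes had them between d 9 and d 2, 48.2% between d 16 and d 2, and 29.4% between d 16 and d 9, beside 3, 3 and 1 of the 3 members. Between d 16 and d 9 no member was called, and 0.558% of all tested probes were called higher and 0.861% lower. No member was called for a difference between dams (limma, F test on dam beside the day term, adjusted p = 0.957 for Ccl28, 0.730 for Tnfsf13 and 0.868 for Pigr), and the share of all tested probes called was 0%, with 1773 at an unadjusted p under 0.05.

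The size of the changes depended on the scaling and on the background correction, which moved the changes from d 2 in opposite directions. With the 9 spike-in probes as the scale in place of quantiles, the median of all tested probes was 1.52 higher on d 9 than on d 2 and 0.59 higher on d 16 than on d 2. The d 9 minus d 2 differences were then 2.65 for Ccl28, 2.33 for Tnfsf13 and 2.41 for Pigr, which is 1.13, 0.81 and 0.89 above that median. The d 16 minus d 2 differences were 1.54 for Ccl28 (limma, adjusted p = 0.226), 1.18 for Tnfsf13 (adjusted p = 0.394) and 2.60 for Pigr (adjusted p = 0.00950). With normexp all were smaller than as reported: the d 9 minus d 2 differences were 0.84 for Ccl28, 0.79 for Tnfsf13 and 0.41 for Pigr, and the d 16 minus d 2 differences were 0.79, 0.57 and 0.84, each of the 6 called by limma. Pigr, the dimmest of the 3, was reduced most. The sign of each of the 9 member differences was kept in every setting run, but the sizes were not. With spike-in scaling the d 16 minus d 9 difference of Pigr was 0.18 (limma, adjusted p = 0.832). This is 1.12 above the median of all tested probes, which was then -0.93. The same differences were -1.11 for Ccl28 and -1.15 for Tnfsf13.

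**Figure D2:**
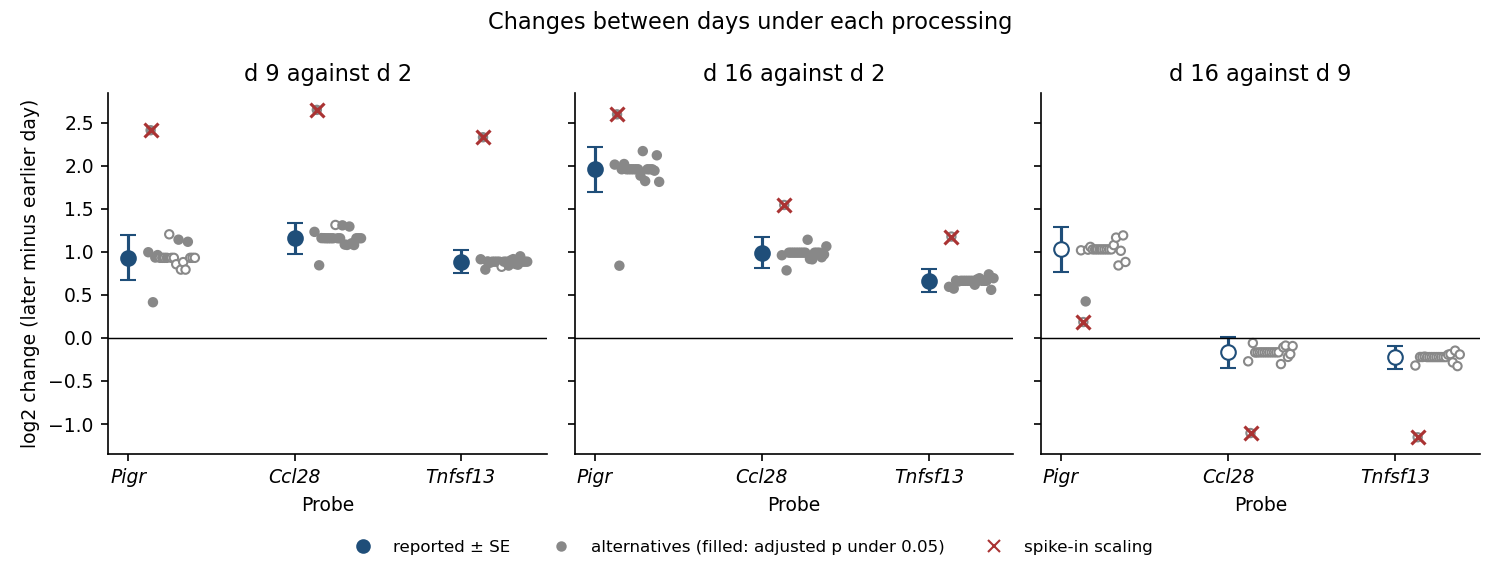
log2 change between days (y axis, later minus earlier day) of the 3 tested probes as reported (large points, bars are ± SE of the limma fit) and under each alternative setting (small points, filled where the adjusted p was under 0.05, and crosses for spike-in scaling). Between d 2 and d 16 the Pigr points are filled in every setting, from d 2 to d 9 many are open, and the spike-in values stand apart in all 3 comparisons.

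A ratio of processed signals on one array does not depend on the scaling between arrays, but it does depend on the background correction. Such a ratio has no meaning as a level, since each probe binds differently, but its change between days compares the courses of the genes. The log2 ratio of Pigr to Tnfsf13 was -4.94, -4.62 and -5.37 on d 2, -4.80, -4.67 and -5.23 on d 9, and -3.39, -4.12 and -3.17 on d 16. The first of the d 2 ratios rests on a Pigr signal that was not well above background. All d 16 ratios exceeded those of both earlier days. The mean ratio was 1.34 higher on d 16 than on d 9 and 1.42 higher than on d 2. The ratio of Pigr to Ccl28 was likewise 1.29 higher on d 16 than on d 9 and 1.05 higher than on d 2. Each of these 4 differences had an exact permutation p of 0.100 (two-sided), the smallest that 3 against 3 arrays allow, and an adjusted p of 0.225 over the 9 ratios compared. The permutation moved arrays freely between the days compared and ignored that the same dams gave both. A permutation within dams was not run. Without the d 2 whey of dam 1, the d 16 minus d 2 differences were 1.44 for Pigr to Tnfsf13 and 0.87 for Pigr to Ccl28. With normexp both turned negative (-0.91 for Pigr to Ccl28), so the direction of the ratio change from d 2 depended on the background correction, whereas the d 16 minus d 9 differences were 1.06 and 0.88. The ratio of Ccl28 to Tnfsf13 differed by 0.32 between d 9 and d 2, by 0.37 between d 16 and d 2 and by 0.05 between d 16 and d 9 (exact permutation p = 0.300, 0.300 and 0.900), with overlapping days, and these were -0.26, -0.09 and 0.17 with normexp.

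**Figure D3:**
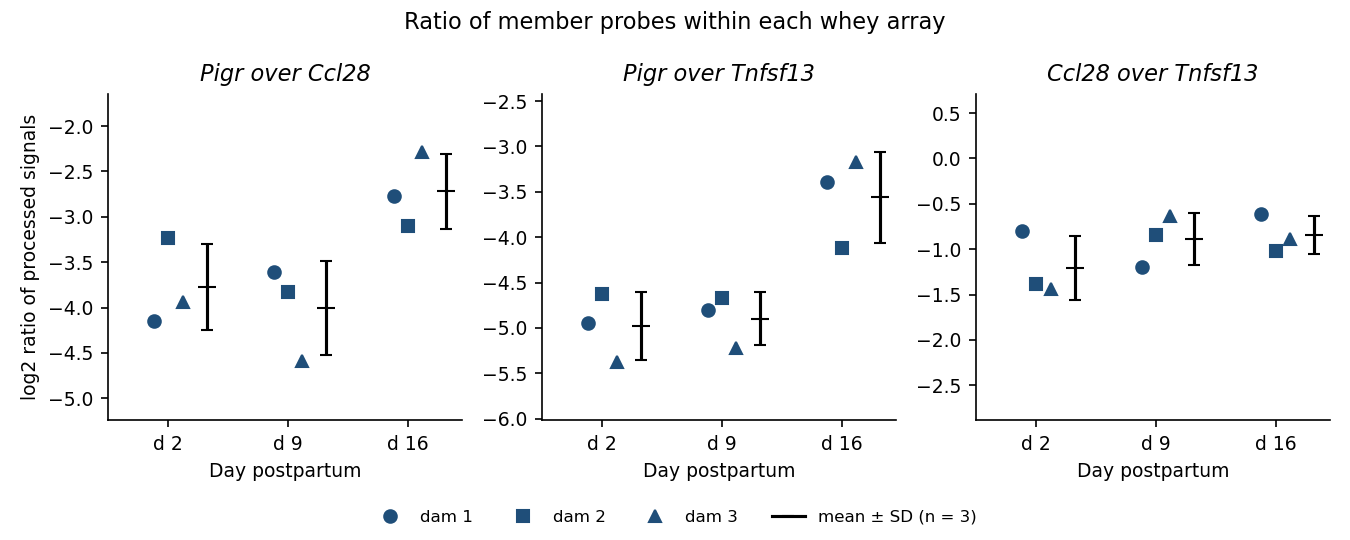
log2 ratio of the processed signals of 2 member probes on the same whey array (y axis) by day postpartum, one marker shape per dam, with the mean ± SD. All panels span the same number of log2 units. Pigr over Ccl28 and Pigr over Tnfsf13 are higher on d 16 than on d 2 and d 9, while Ccl28 over Tnfsf13 overlaps between days. Against d 2 the sign changes with unscaled normexp values, whose offset makes the ratio depend on array brightness in every comparison.

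Over the 9 whey arrays, the Pearson r was 0.87 between Ccl28 and Tnfsf13, 0.65 between Pigr and Ccl28 and 0.63 between Pigr and Tnfsf13, as a description of arrays that share the days. The patterns most like each member were sought among 6282 probes that had a gene symbol and the well above background flag on each of the 9 whey arrays. For Ccl28 they were those of Gtf2a2, a subunit of the general factor TFIIA (r = 0.98), B4galt1 (r = 0.98) and Mrpl42, a mitochondrial ribosomal protein (r = 0.98). B4galt1, the galactosyltransferase that forms lactose synthase with alpha-lactalbumin, was 1.64 higher on d 9 and 1.58 higher on d 16 than on d 2 (limma, adjusted p = 0.00742 and 0.00460). For Tnfsf13 they were Dnajc4, a J-domain protein (r = 0.99), the endosomal syntaxin Stx7 (r = 0.99) and Mrps15, another mitochondrial ribosomal protein (r = 0.98). For Pigr they were the epithelial polarity gene Scrib (r = 0.97), the RNA-binding protein gene Pcbp2 (r = 0.97) and Eif4ebp2, which encodes a repressor of translation initiation (r = 0.97).

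Igj and Fcgrt were not well above background on any array. The processed signal of Igj was between 2.08 and 3.58 on the whey arrays and 2.46 in serum, and that of Fcgrt was between 1.91 and 6.71 in whey and 7.63 in serum. Their normalized values of 1.09 to 2.18 for Igj and 1.03 to 2.63 for Fcgrt in whey therefore have no order between days, and neither gene was tested. A signal that is not above background does not show that the transcript is absent.

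In the serum pool, the tested members ranged from near background to a weak signal. Ccl28 was not well above background in serum (2.10), so its whey mean of 9.04 ± 0.57 (SD over all whey arrays, n = 9) was at least 9.14-fold higher than serum, taking as serum floor the lowest signal among probes well above background there. Tnfsf13 was well above background in serum at 6.57, with a processed signal of 11.0, and its whey mean of 10.05 ± 0.42 (SD, n = 9) was 3.48 (log2) or 11.1-fold higher. Pigr was not well above background in serum (2.30), and its whey mean of 5.60 ± 0.90 (SD, n = 9) lay below the serum floor of 5.85, so that no fold is given. Serum was taken on d 21, after the last whey, and had 1 array, so these differences had no test.

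The genes around the members were read from 9 groups by role, 69 genes in all, of which 63 had a probe and 50 of 87 probes were tested. On d 9 against d 2, 8 of these probes were higher and 1 lower, with a median of 0.10 against 0.11 over all tested probes. On d 16 against d 2, 14 were higher and 6 lower, with a median of 0.10 against 0.04. Over all tested probes, 11.2% were called higher and 6.46% lower on d 9, and 16.0% and 12.5% on d 16. Of the 50, 5 were well above background on no d 2 array and were tested through the later days, among them 2 of the 14. Between d 9 and d 16, 0 were called by limma, with a median of 0.22 against -0.06. With slide as a block, the adjusted p for the d 9 minus d 2 difference was 0.190 to 0.332 for the 4 B2m probes, 0.210 for Fcer1g, 0.147 for Fcgr1a and 0.195 for Usf2 (limma), the genes described next that were called on d 9 and were well above background throughout. The called probes are given next by group, without a test between groups.

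Of the FcRn pair, the partner alone gave signals above background. B2m encodes beta-2-microglobulin, which is also the light chain of MHC class I, and all of its 4 probes were well above background on all 10 arrays. All 4 rose from d 2 to d 16, by 1.25 to 1.39 (log2), and 3 of 4 from d 2 to d 9. The probe of the largest change to d 16 gave 11.98, 11.71 and 11.67 on d 2, 12.43, 12.49 and 12.15 on d 9 and 13.00, 13.32 and 13.23 on d 16, against 15.28 in serum. Its days did not overlap. From d 2 to d 16 it rose by 1.39 (SE 0.15; limma, adjusted p = 0.00104), while its d 9 minus d 2 difference of 0.57 had an adjusted p of 0.0411, and of 0.0588 with the dam as a block. With spike-in scaling the 4 probes were 1.79 to 1.97 higher on d 16 than on d 2 and none was called.

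Among other Fc receptors, which bind IgG or IgE on leukocytes, Fcer1g and Fcgr1a were well above background on every whey array and rose. The other 3 tested probes, those of Fcgr3a, Fcgr2a and Fcgr2b, were well above background on no d 2 array and were tested only through the later days, so their changes are not counted. Fcer1g, the signalling chain that several Fc receptors share, was 5.44 ± 0.47 on d 2, 7.24 ± 0.40 on d 9 and 9.16 ± 0.67 on d 16 (SD, n = 3 each) and 12.66 in serum, and it rose by 3.72 from d 2 to d 16 (limma, adjusted p = 0.000816). Of 2 probes of Fcgr1a, the high-affinity IgG receptor, the tested one was 4.43 ± 0.52, 6.29 ± 0.48 and 7.80 ± 0.15 on the 3 days (SD, n = 3 each) and 9.30 in serum, and it rose by 3.36 (limma, adjusted p = 0.000596). The other Fcgr1a probe was well above background on 1 of 9 whey arrays and not in serum (1.09). With normexp the rises to d 16 were 2.35 for Fcer1g and 1.60 for Fcgr1a, both called by limma. On the quantile-normalized scale both tested probes were higher in serum than in any whey array, unlike Ccl28 and Tnfsf13. Pigr was not well above background in serum, so its order against whey is not given. Before normalization the 75th percentile was 4.11 in serum against 12.5 to 83.2 in whey. With spike-in scaling the whey minus serum difference of Tnfsf13 was larger, and the order of these Fc receptor probes under it was not tested. Of the markers of macrophages and dendritic cells, 10 probes were tested, 5 of which were well above background on no d 2 array and could pass only through the later days. Of the other 5, C1qb and 1 probe of C1qa rose from d 2 to d 16 (by 3.69 and 3.31), both probes of Cd14 fell (by 1.88 and 1.22) and Emr1 was not called (limma). The summed normalized signal of all 15 probes was 381 to 474 on d 2, 304 to 633 on d 9, 905 to 961 on d 16 and 3670 in serum. Among T cell markers 2 of 3 tested probes rose to d 16 and among neutrophil markers 0 of 4, beside 16.0% of all tested probes. The lists of erythroid cells and liver had 0 tested probes. The part of these cells in the Fc receptor, B2m and member changes was not tested.

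Few receptors of the ligands were measured. No probe has the name of the gene of TACI or BAFF-R, so these were not analysed here. Ccr10 and Ccr3, the receptors for CCL28, and Tnfrsf17, which encodes the APRIL receptor BCMA, were not well above background on any array, whereas Sdc1, the proteoglycan that binds APRIL on plasma cells, was well above background on all 10, at 5.88 ± 0.21, 5.33 ± 0.58 and 5.87 ± 0.33 on the 3 days (SD, n = 3 each) without a call and at 7.55 in serum. Sdc1 was also the only tested probe among 11 probes of the B cell and plasma cell list, whose summed signal was 77.4 to 86.8 on d 2, 49.0 to 87.3 on d 9 and 79.8 to 109 on d 16, against 554 in serum. Of its other probes, 4 (Mzb1, Igh-6, Ms4a1 and 1 of 2 for Pou2af1) were well above background on 1 whey array each and the second Pou2af1 probe only in serum, at 7.86. Irf4 and Prdm1, which act in plasma cell differentiation, were not well above background on any array.

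Tnfsf12, the neighbour of Tnfsf13 that encodes TWEAK, changed in the other direction. Its normalized signal was 5.41, 5.37 and 4.25 on d 2, 2.54, 2.47 and 2.50 on d 9 and 4.02, 3.94 and 3.40 on d 16. The d 9 arrays were lowest, and the days did not overlap. It fell by 1.22 (SE 0.32) from d 2 to d 16 (limma, adjusted p = 0.0255). The d 9 minus d 2 difference was -2.51 (limma, adjusted p = 0.00404), a value named after it was seen, since the probe was well above background on only 1 of 3 d 9 arrays. The d 16 minus d 2 difference lost its call with spike-in scaling (-0.66, limma, adjusted p = 0.676) and with normexp (-0.22, limma, adjusted p = 0.0765), and the d 9 minus d 2 difference was -0.38 with normexp (limma, adjusted p = 0.0127).

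Among genes known to act on Pigr expression, 1 of 17 tested probes was called higher on d 9, and 2 higher and 1 lower on d 16. Over all tested probes, 11.2% were called higher on d 9, and 16.0% higher and 12.5% lower on d 16. The counts of this group do not exceed these shares. Usf2 was the probe that rose on both later days. Usf2 encodes a basic helix-loop-helix factor that binds the E-box CACGTG, and its signal was 5.67 ± 0.05 on d 2, 6.44 ± 0.16 on d 9 and 6.51 ± 0.09 on d 16 (SD, n = 3 each). It rose by 0.77 to d 9 and by 0.85 to d 16 (limma, adjusted p = 0.00721 and 0.00266), the latter losing its call with spike-in scaling (adjusted p = 0.252). Its partner Usf1 differed by 0.02 between d 16 and d 2 (SE 0.12; limma, adjusted p = 0.929). Tnfrsf1a, a TNF receptor, rose by 0.50 to d 16 (limma, adjusted p = 0.0138, and 0.417 with spike-in scaling).

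The promoters are shown for Pigr and Ccl28 because both hold this E-box within 250 bases before the start of the gene. The sequences are those of RefSeq on the assembly GRCr8, another build than that of the probes, with the E-box in capitals.

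Pigr, chr13:44850932-44851181 (GRCr8, plus strand): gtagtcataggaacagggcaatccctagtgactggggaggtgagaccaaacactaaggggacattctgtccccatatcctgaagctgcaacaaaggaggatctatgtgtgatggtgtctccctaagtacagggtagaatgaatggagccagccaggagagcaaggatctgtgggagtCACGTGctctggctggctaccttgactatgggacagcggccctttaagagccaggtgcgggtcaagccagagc
Ccl28, chr2:53333821-53334070 (GRCr8, plus strand): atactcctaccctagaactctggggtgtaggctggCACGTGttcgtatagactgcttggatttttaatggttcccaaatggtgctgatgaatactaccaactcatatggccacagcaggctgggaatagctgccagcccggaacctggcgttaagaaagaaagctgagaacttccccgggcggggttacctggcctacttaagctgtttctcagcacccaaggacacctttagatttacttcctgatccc

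The E-box starts 73 bases before the gene start in Pigr and 215 bases before it in Ccl28. Both strands were searched, and CACGTG reads the same on both. Of 33469 rat promoters with a window of this length, 5.59% hold it. All 6 member genes had a promoter entry, that of Igj under the name Jchain, and the windows of Tnfsf13, Tnfsf13b, Igj and Fcgrt held no CACGTG. The same windows were searched on both strands for other patterns. A STAT core pattern, TTCNNNGAA, was found in 7.67% of promoters and, among the members, only in that of Fcgrt. An interferon regulatory factor element was found in 3.41% of promoters and in those of Fcgrt and Tnfsf13b, and a loose NF-kappaB pattern in 42.3% of promoters and in those of Pigr, Tnfsf13 and Igj. TATAAA, present in 12.9% of promoters, was in none of the 6 windows. None of these patterns overlapped the E-box in the Pigr or Ccl28 window. A match is a run of letters and not evidence of binding.

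Of the remaining groups, the class switch list (TGF-beta, CD40, lymphotoxin and retinoic acid genes) had 11 tested probes. Of these, 1 rose from d 2 to d 9, and 2 rose and 1 fell from d 2 to d 16. Over all tested probes, 11.2% were called higher on d 9, and 16.0% higher and 12.5% lower on d 16. Ltbr, the lymphotoxin beta receptor, was 5.70 ± 0.13 in d 2 whey and 6.80 ± 0.32 in d 16 whey (SD, n = 3 each), a rise of 1.10 (limma, adjusted p = 0.00749, and 0.151 with spike-in scaling). Tgfb1, Aldh1a2, Cd40 and Cd40lg were not well above background on any array. In the transcytosis list, whose genes move vesicles through epithelial cells, 1 of 8 tested probes rose and 2 fell to d 16. Of 3 probes of Rab11a, a GTPase of recycling endosomes, 1 rose by 0.65 (limma, adjusted p = 0.0254, and 0.344 with spike-in scaling) and the others differed by 0.01 and 0.08, and Ap1m2, the epithelial subunit of the AP-1 sorting complex, fell by 0.52 (limma, adjusted p = 0.0216), although with spike-in scaling its difference was 0.03. In the plasma cell homing list 1 of 2 tested Itgb1 probes was 0.86 higher on d 16 (limma, adjusted p = 0.0439, 0.0576 with the dam as a block and 0.249 with spike-in scaling), and the other differed by -0.16. With normexp the d 16 minus d 2 differences of these Ltbr, Rab11a and Itgb1 probes, of Usf2 and of Tnfrsf1a were 0.27 to 0.63, and each was called by limma.

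**Figure D4:**
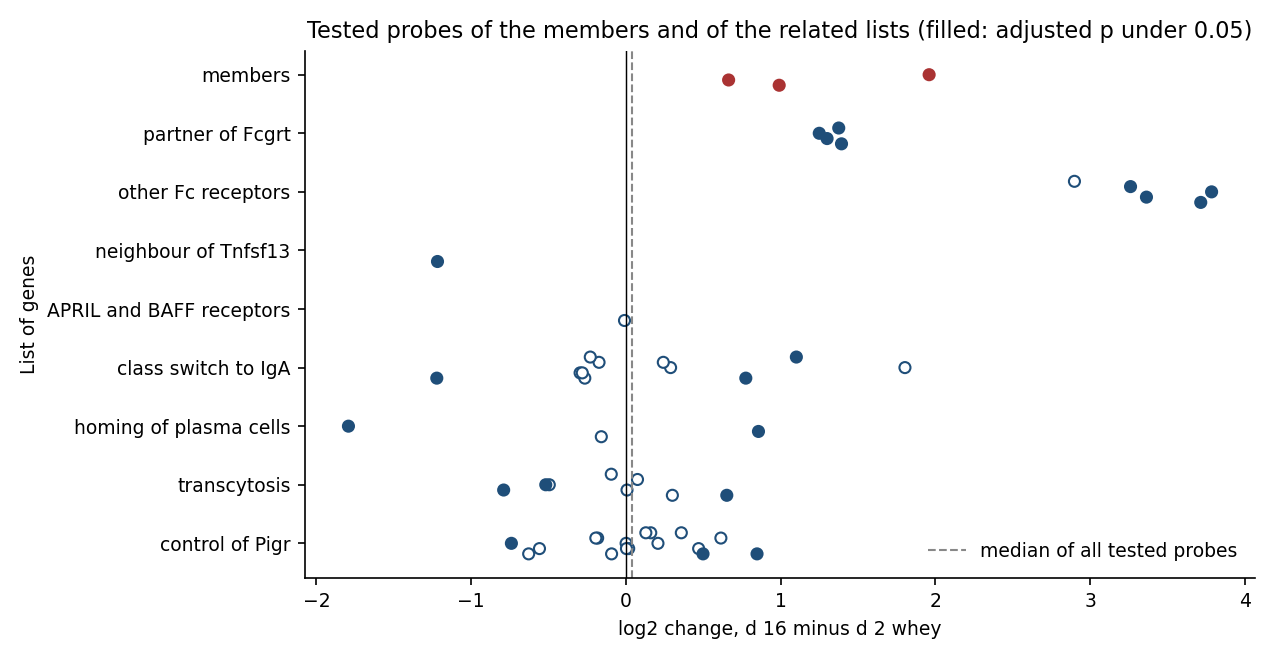
log2 change from d 2 to d 16 whey (x axis) of the 3 tested member probes (top row) and of the tested probes of the related genes, one row per group with a tested probe, filled where the adjusted p was under 0.05. The dashed line is the median of all tested probes (0.04). The Fc receptors (of which 3 probes were not well above background on d 2) and B2m lie to the right of it, Tnfsf12 to the left, and the class switch, homing, transcytosis and Pigr control groups lie on both sides.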

How the data were processed

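The data are Agilent whole rat genome 1-colour arrays of Cy3-labelled cRNA. Per the file headers and the labels, the authors extracted spot intensity and flags with Agilent Feature Extraction 9.5.3.1 on the rn4 design. The deposited processed signal is background-subtracted intensity, not scaled between arrays. Its log2 values were computed here from the deposited files, quantile normalized over 10 arrays with control spots left out and spots flagged as outliers (93 to 121 per array) set missing, and spots of a probe were averaged. A probe was detected on an array where most of its spots were flagged well above background and its mean processed signal was above 20, and was tested if detected on at least 1 whey array.

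Days were compared with limma 3.58.1 (R 4.3.3; lmFit and eBayes over the 9 whey arrays, Benjamini-Hochberg over 16849 probes, threshold 0.05). The fit was tested on simulated data. The 3 dams are numbered in the labels and were milked on every day. Deviations from the day means correlated at -0.02 to 0.22 within a dam (mean 0.10) and at -0.25 to 0.16 between dams (mean -0.05), and the dam block was an alternative. A deposited table of normalized values with 10 sample columns that match no label was not used. Every member probe was named. Related genes were named if called and well above background on all arrays of both days, at most 4 per group and largest first, and the 3 most correlated genes per member were named. Other genes named without a call were chosen after their values were seen. The members and lists were chosen with earlier results of these data known. Alternatives covered scaling, background correction, detection, blocks, tests and leaving out each array. Values of some genes of the related and marker lists are not reported here.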

Additional observations from a re-analysis of the deposited data

How the results depend on the processing

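Of the called member changes, those of Pigr from d 2 to d 16 passed the threshold in 20 of 20 alternatives, those of Ccl28 and Tnfsf13 in 19 of 20, with spike-in scaling the exception (1 member called). From d 2 to d 9, 0 members were called with slide as a block, and 2 to 3 when 1 array was left out, against 3 to 3 from d 2 to d 16 and 0 to 0 from d 9 to d 16. Pigr from d 2 to d 9 was lost with the dam as a replicate block (adjusted p = 0.0697), with no filter (0.0926), with only those days fitted (0.0838), with the methods' Tukey-Kramer test (0.171) and without each of 7 arrays. These were d 2 whey of dam 1 (0.108) or 3 (0.105), d 9 whey of dam 1 (0.101) or 2 (0.138) and d 16 whey of dam 1 (0.0661), 2 (0.0533) or 3 (0.0604). The replicate block changed no other member call. From d 9 to d 16, 1 member, Pigr, was called with normexp (0.42, adjusted p = 0.0395), with a minimum of 100 (adjusted p = 0.0439) and with trended robust eBayes (adjusted p = 0.0380). Of the related probes, 9 called from d 2 to d 9 became 22 with spike-in scaling, 1 with slide as a block, 4 with Tukey-Kramer and 6 to 9 without 1 array. The 20 from d 2 to d 16 became 5 with spike-in scaling, 11 with Tukey-Kramer and 11 to 20 without 1 array, the fewest without d 16 whey of dam 3, with 12 without d 2 whey of dam 2 and 13 without d 16 whey of dam 1 or 2. The 0 from d 9 to d 16 became 5 with normexp, 1 with outlier spots kept, 6 with a minimum of 100, 5 with trended robust eBayes and 0 to 2 without 1 array. With no minimum signal, 1 member (Tnfsf13) was detected in serum against 0. The whey minus serum difference (log2) of Tnfsf13, 3.48 as reported, was 4.11 with 75th percentile, 6.92 with spike-in scaling and 2.40 with normexp, and the log2 bound for Ccl28, 3.19 as reported, was 6.48 with spike-in scaling. The log2 bound for Pigr of -0.26 became 0.17, 2.98 and 0.69 under these 3 settings. The cause of these differences was not tested. The dam F test called 0 members under 3 other settings chosen after seeing the data, as were those for the ratios. Signal over background limits Pigr on d 2, Igj and Fcgrt.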
